A study of Mus musculus with 18 samples.

Results

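Chemokines and epithelial cytokines are the secreted and membrane-bound signals by which airway cells, alveolar cells and stromal cells recruit and instruct leukocytes. A list of 40 such genes was followed, out of 27179 genes counted in the series. The members are given by gene symbol, with no threshold on measured values, and were listed with earlier results of these data known. All 40 symbols matched an Entrez identifier in the count files, and all 40 passed the filter on low counts. The list holds 4 CXC chemokines with an ELR motif (*Cxcl1*, *Cxcl2*, *Cxcl5*, *Cxcl15*), 8 other CXC and CX3C chemokines, 12 CC chemokines, 5 genes of the IL-1 family, 5 other interleukins and TSLP, 3 colony stimulating factors, and *Tnf*, *Tnfsf10* and *Lif*.

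RNA from 6 populations of cells sorted by FACS from C57BL/6 mice, adult males in the study's methods, was sequenced, with 3 libraries in each. None of the mice carried an engineered allele or received a treatment according to the sample labels. Basal stem cells (BSCs, labelled Basal) were the NGFR-positive cells of the trachea of mice 1 to 3, and non-basal cells were the NGFR-negative fraction from the same tracheas. The lungs of mice 4 to 6 each gave a CD24hi gate (EpCAM-positive, CD104-positive, enriched in ciliated cells), a CD24lo gate (EpCAM-positive, CD104-positive, enriched in club cells), an alveolar gate (EpCAM-positive, CD104 low) and an EpCAM-negative gate of non-epithelial cells. The gates enrich for cell types and are not pure. Trachea was dissociated with dispase and trypsin and lung with collagenase, so that organ, mouse and dissociation cannot be told apart between tracheal and lung populations. Within an organ, each replicate number stands for 1 mouse. Values of 3 libraries are given below in replicate order, which is mice 1, 2 and 3 for trachea and mice 4, 5 and 6 for lung.

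Chemokines bind G protein-coupled receptors and direct leukocyte migration along gradients. ELR-positive CXC chemokines act mainly on neutrophils through CXCR2, CC chemokines on monocytes, eosinophils, dendritic cells and lymphocytes, and homeostatic chemokines such as CXCL12 position cells in resting tissue. Epithelial cytokines such as IL-33, TSLP and the IL-1 family are alarmins or inflammatory signals, and the colony stimulating factor CSF1 maintains macrophages. GM-CSF, the product of *Csf2*, is required for the maturation of alveolar macrophages, which clear surfactant.

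Tracheal libraries held 29317215 to 32993621 counted reads and lung libraries 9811503 to 13208897, so low transcripts carried more counting error in lung. The 6 basal markers summed to 8071 to 8728 CPM in BSCs and 2083 to 2732 CPM in non-basal cells. The 6 alveolar type 2 markers summed to 187636 to 208683 CPM in alveolar libraries, 10232 to 11871 in CD24lo, 2256 to 3618 in CD24hi and 739 to 1200 in EpCAM-negative libraries. The 7 fibroblast and smooth muscle markers summed to 28675 to 30212 CPM in EpCAM-negative libraries and to 723 to 1159 CPM in alveolar libraries. The 4 mesothelial markers summed to 2594 to 2682 CPM in non-basal tracheal cells, 218 to 270 CPM in BSCs and only 36.1 to 76.6 CPM in EpCAM-negative cells. The sum of this list is therefore not read here as a measure of mesothelial cells. Endothelial markers were present in EpCAM-negative (515 to 816 CPM), CD24lo (457 to 913 CPM) and CD24hi libraries (198 to 636 CPM), and alveolar cells held 146 to 286 CPM. The study's methods stain mouse lung cells for CD45, a leukocyte marker, and CD31, an endothelial marker, and define alveolar cells as negative for both. In bulk libraries such as these, fewer cells of a type and less RNA per cell cannot be told apart.

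Upstream sequences are shown for 7 members as examples, because they are chromosomal neighbours or hold motif matches and differ between the populations described below. RefSeq promoter sequences (GRCm38.p6) matched 27 of the 40 members, with 31 promoters. The 250 bases before the annotated start were searched on both strands for 4 motifs. A match to the NF-kappaB motif was found in 8 of the 31 promoters, of 8 members, and in 7.25% of all 32851 promoters. The AP-1 motif TGANTCA was found in 6 of the 31 promoters, of 6 members, and in 6.75% of all promoters. The C/EBP motif TTGCNNAA was found in 4, of 4 members, and in 9.56%. The TATA box TATAAA was found in 12, of 11 members, and in 12.4%. A match is a description of letters, and binding was not measured. Each sequence below is given 5′ to 3′ on the gene's strand and ends at the base before the start, with matches in capitals. *Cxcl15*, *Cxcl1* and *Cxcl2* are neighbours on chromosome 5, yet only the first was highest in alveolar cells. Their sequences lie at chr5:90794284-90794533, chr5:90890995-90891244 and chr5:90903649-90903898, all on the plus strand. Capitals mark a TATA box in *Cxcl15*, and overlapping NF-kappaB matches on both strands in *Cxcl1* and *Cxcl2*.
Cxcl15: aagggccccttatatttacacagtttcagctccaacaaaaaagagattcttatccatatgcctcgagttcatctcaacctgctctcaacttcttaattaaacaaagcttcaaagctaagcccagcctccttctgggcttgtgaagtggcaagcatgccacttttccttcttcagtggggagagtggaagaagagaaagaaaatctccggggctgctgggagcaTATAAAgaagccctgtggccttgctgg
Cxcl1: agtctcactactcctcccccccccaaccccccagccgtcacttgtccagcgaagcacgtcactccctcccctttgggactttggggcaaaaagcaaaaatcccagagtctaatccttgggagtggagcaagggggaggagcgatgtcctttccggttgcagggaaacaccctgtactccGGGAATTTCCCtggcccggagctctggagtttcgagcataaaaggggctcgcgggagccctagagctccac
Cxcl2: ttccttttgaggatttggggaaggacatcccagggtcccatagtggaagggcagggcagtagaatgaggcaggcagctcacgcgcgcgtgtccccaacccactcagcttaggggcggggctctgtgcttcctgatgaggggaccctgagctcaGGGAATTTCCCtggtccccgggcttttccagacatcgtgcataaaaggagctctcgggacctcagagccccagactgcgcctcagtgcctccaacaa

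*Il6* and *Cxcl10* are examples of members highest in EpCAM-negative cells, and *Csf2* of those highest in alveolar cells. *Ccl20* is an example of a member higher in tracheal and CD24lo epithelium. They were picked for their matches and do not typify these populations. The promoters of *Cxcl12* and *Cxcl14*, also highest in EpCAM-negative cells, held no match to any of the motifs. The *Il6* sequence (chr5:30012864-30013113, plus strand) shows, in order, matches for AP-1, C/EBP and NF-kappaB. The *Cxcl10* sequence (chr5:92348890-92349139, minus strand) shows 1 NF-kappaB match, a group of overlapping NF-kappaB matches and an AP-1 match. The *Csf2* sequence (chr11:54249900-54250149, minus strand) holds a C/EBP match, and the *Ccl20* sequence (chr1:83116516-83116765, plus strand) an NF-kappaB match.
Il6: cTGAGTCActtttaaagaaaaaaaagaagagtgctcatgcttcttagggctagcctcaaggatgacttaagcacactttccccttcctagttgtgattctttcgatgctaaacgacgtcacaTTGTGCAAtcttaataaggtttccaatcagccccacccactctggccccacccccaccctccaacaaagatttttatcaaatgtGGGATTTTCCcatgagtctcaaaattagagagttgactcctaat
Cxcl10: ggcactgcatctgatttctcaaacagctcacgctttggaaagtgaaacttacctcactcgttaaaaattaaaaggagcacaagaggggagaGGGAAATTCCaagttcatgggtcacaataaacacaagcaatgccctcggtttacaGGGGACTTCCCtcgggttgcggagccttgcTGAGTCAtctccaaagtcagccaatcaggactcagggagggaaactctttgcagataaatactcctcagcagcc
Csf2: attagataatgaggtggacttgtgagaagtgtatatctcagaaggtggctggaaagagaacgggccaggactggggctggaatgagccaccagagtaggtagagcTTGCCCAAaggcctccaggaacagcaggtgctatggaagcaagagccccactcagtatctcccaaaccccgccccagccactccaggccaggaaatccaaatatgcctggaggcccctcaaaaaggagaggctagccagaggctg
Ccl20: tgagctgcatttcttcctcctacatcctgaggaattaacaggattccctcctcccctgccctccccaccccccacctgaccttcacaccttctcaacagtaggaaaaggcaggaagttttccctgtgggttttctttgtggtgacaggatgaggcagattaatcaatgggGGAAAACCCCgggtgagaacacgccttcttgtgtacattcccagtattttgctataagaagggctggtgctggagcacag

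Levels of the 40 members were compared as RPKM, read counts divided by the deposited gene length and by the TMM-scaled library size. EpCAM-negative cells had the highest mean for 20 members, and for 12 of these all 3 libraries lay above every other library of the series. BSCs had the highest mean for 7 members (3 without overlap), non-basal cells for 6 (4 without overlap), alveolar cells for 5 (5 without overlap), CD24hi cells for 2 (2 without overlap) and CD24lo cells for 0. Members with a mean of at least 10 RPKM numbered 18 in EpCAM-negative cells, 10 in alveolar cells, 9 in CD24lo cells, 7 in non-basal cells, 5 in BSCs and 3 in CD24hi cells. The same counts were not made over all genes. They describe the list and cannot show whether it differs from other genes. The chromosomal clusters did not share 1 pattern: the ELR neighbours *Cxcl5*, *Cxcl15* and *Cxcl1* were each highest in a different population, whereas *Ccl2*, *Ccl7* and *Ccl11*, adjacent on chromosome 11, were all highest in EpCAM-negative cells.

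**Figure D1:**
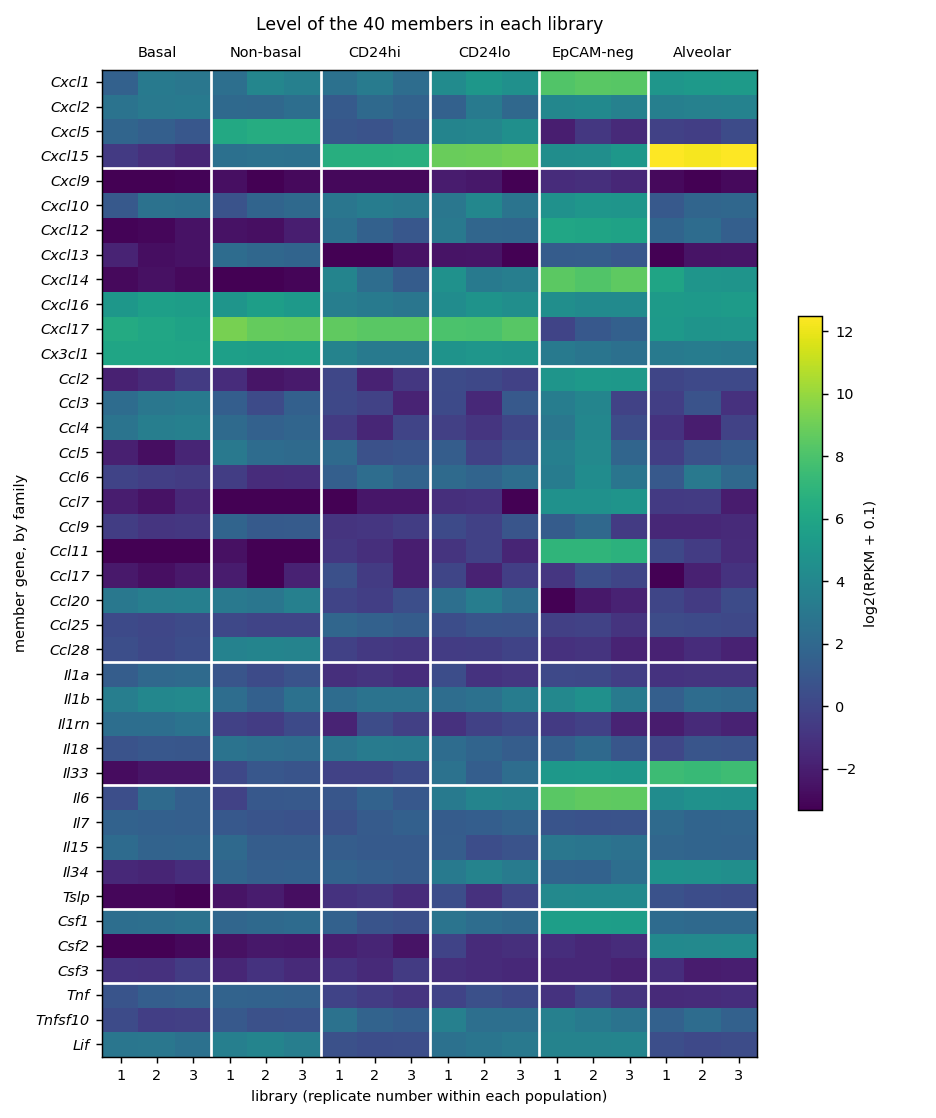
Heat map of log2(RPKM + 0.1) for the 40 members (rows, grouped by family) in the 18 libraries (columns, replicate number within each population). The EpCAM-neg columns hold the highest mean for 20 members, and Cxcl15 in the Alveolar columns is the brightest row.

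Alveolar cells had the highest level without overlap for 5 members. *Cxcl15* (lungkine), an ELR chemokine of lung epithelium, was at 5673, 4927 and 5471 RPKM in the 3 alveolar libraries, 464, 476 and 561 in CD24lo, 94.6, 93.9 and 102 in CD24hi and 21.5, 22.5 and 32.7 in EpCAM-negative cells. Every step of this order was without overlap between libraries, down to 5.57, 5.98 and 5.79 RPKM in non-basal cells and under 1 RPKM in BSCs. *Il33*, a nuclear alarmin of the IL-1 family, was at 179, 162 and 188 RPKM in alveolar, 34.5, 37.1 and 32.0 in EpCAM-negative and 6.15, 2.49 and 5.00 in CD24lo libraries, again without overlap. *Csf2* (GM-CSF) was at 17.9, 17.5 and 18.7 RPKM in alveolar libraries and no higher than 0.802 RPKM in any other library. *Il34*, a second ligand of the CSF1 receptor, was at 26.7, 24.8 and 22.7 RPKM in alveolar and 9.17, 13.5 and 9.52 in CD24lo libraries. *Il7*, a lymphocyte survival factor, was at 4.24, 3.31 and 3.51 RPKM in alveolar libraries and at most 3.12 RPKM elsewhere. This lead was small, and *Il7* was not called between BSCs and alveolar cells (log2 fold change -0.37, adjusted p = 0.0915 by edgeR). With RPKM from library size alone its highest mean was in BSCs.

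The levels of these members in the other lung gates were set beside those of the alveolar type 2 markers. The mean level of a marker in CD24lo cells was 2.50% to 16.03% of its alveolar level (median 8.05%), and in CD24hi cells 0.628% to 10.7% (median 1.62%). *Cxcl15* was at 9.34% and 1.805%, *Csf2* at 2.63% and 0.809%, and *Il33* at 2.58% and 0.494% of their alveolar levels in CD24lo and CD24hi cells, all within the marker ranges except *Il33* in CD24hi cells, which lay below. *Il34* in CD24lo cells was at 43.4% of its alveolar level, above the range of the markers. In EpCAM-negative cells the markers were at 0.407% to 3.00%, *Cxcl15* at 0.477% and *Csf2* at 1.56%, while *Il33* was at 19.6% and *Il34* at 15.2%. The part of alveolar cells or their RNA in the levels of the other gates was not tested.

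**Figure D2:**
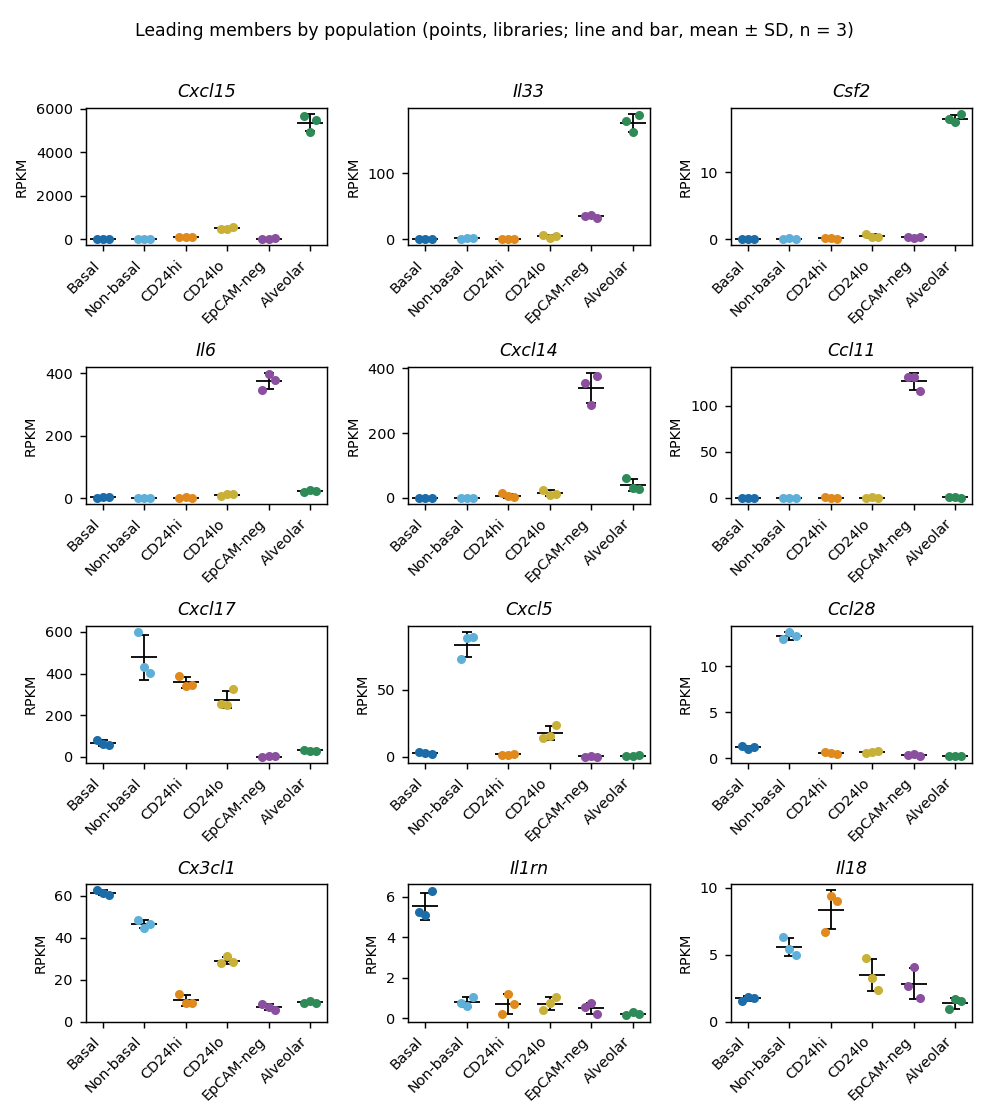
RPKM of 12 leading members in the 6 populations, with linear axes that differ between panels (points, libraries; line and bar, mean ± SD, n = 3). Cxcl15, Il33 and Csf2 peak in Alveolar, Il6, Cxcl14 and Ccl11 in EpCAM-neg, Cxcl17, Cxcl5 and Ccl28 in Non-basal, Cx3cl1 and Il1rn in Basal and Il18 in CD24hi libraries.

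EpCAM-negative cells were compared with the mean of the log2 levels of the 3 lung epithelial gates. Of the 40 members, 24 were higher and 9 lower in EpCAM-negative cells (edgeR, adjusted p-value under 0.05), where 35.5% of all 17989 genes tested were higher and 33.4% lower. The median log2 fold change of the members was 1.56, against -0.01 for all genes. CC chemokines rose for 8 of 12 genes and fell for 2. Because the reference is a mean over gates, a member can be higher in this comparison and still lie below 1 gate, as *Il33* did.

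The monocyte and eosinophil chemokines were nearly confined to the EpCAM-negative gate. *Ccl11* (eotaxin-1), which attracts eosinophils through CCR3, was at 131, 131 and 116 RPKM in EpCAM-negative libraries and at most 0.985 RPKM in any other library. Its log2 fold change over the epithelial gates was 8.07 (SE 0.18, adjusted p = 2.54e-15 by edgeR). The monocyte attractants *Ccl2* and *Ccl7*, ligands of CCR2, were at 29.9, 36.8 and 34.7 and at 25.0, 25.5 and 28.6 RPKM in EpCAM-negative libraries. No other library exceeded 1.14 RPKM for *Ccl2* or 0.574 RPKM for *Ccl7*, and the log2 fold changes were 5.40 (SE 0.22, adjusted p = 2.21e-13 by edgeR) and 7.04 (SE 0.28, adjusted p = 1.57e-12).

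Inflammatory and homeostatic signals of EpCAM-negative cells included some of the most abundant members of the list. *Il6*, an inducer of the acute phase response, was at 347, 398 and 378 RPKM in EpCAM-negative, 20.3, 25.6 and 24.4 in alveolar, 8.47, 13.8 and 12.3 in CD24lo and 1.74, 3.00 and 1.95 in CD24hi libraries. These 4 lung gates did not overlap, and the log2 fold change was 5.47 (SE 0.21, adjusted p = 1.46e-13 by edgeR). The neutrophil chemokine *Cxcl1* had the same order of means, with 293, 344 and 328 RPKM in EpCAM-negative and 31.5, 36.8 and 38.1 in alveolar libraries, at a log2 fold change of 4.13 (SE 0.25, adjusted p = 5.04e-11). *Cxcl14*, a constitutive chemokine of skin and stroma, was at 354, 287 and 375 RPKM in EpCAM-negative and 60.05, 29.8 and 28.6 in alveolar libraries, and rose by 4.40 on the log2 scale (SE 0.32, adjusted p = 9.90e-10 by edgeR). Tracheal libraries held almost no *Cxcl14*, with at most 0.0605 RPKM.

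*Cxcl12*, the ligand of CXCR4, was at 63.8, 59.2 and 54.5 RPKM in EpCAM-negative libraries and at most 8.43 elsewhere (log2 fold change 3.89, SE 0.27, adjusted p = 4.61e-10 by edgeR). *Csf1*, the macrophage growth factor, was at 46.5, 47.1 and 44.4 RPKM against at most 6.79 in any other library (log2 fold change 3.70, SE 0.14, adjusted p = 1.02e-13). *Tslp*, an alarmin that acts on dendritic cells, was at 17.3, 17.7 and 17.8 RPKM and at most 1.45 elsewhere (log2 fold change 4.53, SE 0.18, adjusted p = 2.48e-13). All 3 therefore separated EpCAM-negative libraries from every other library. Among the remaining members that rose without overlap with the epithelial gates of the lung, the interferon-inducible chemokine *Cxcl10* was at 25.7, 31.7 and 30.2 RPKM (log2 fold change 2.19, adjusted p = 1.99e-06 by edgeR). *Il15*, which sustains NK cells, was at 7.56, 7.07 and 5.93 RPKM (1.55, adjusted p = 9.09e-07). *Lif*, a cytokine of the IL-6 family, was at 13.4, 13.5 and 13.9 RPKM (2.63, adjusted p = 1.17e-13) and overlapped with the 11.1, 13.6 and 10.7 RPKM of non-basal tracheal cells. *Cxcl13*, the B cell chemokine, was at 2.35, 2.42 and 1.84 RPKM in EpCAM-negative and at most 0.0869 RPKM in the epithelial libraries of the lung, where CD24hi cells held 1 read and CD24lo and alveolar cells 2 reads each over 3 libraries.

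The epithelial gates contained the reciprocal set. *Cxcl17*, a mucosal chemokine, was at 0.845, 1.96 and 2.81 RPKM in EpCAM-negative libraries and at least 28.9 RPKM in every epithelial library of the lung, a log2 fold change of -6.27 (SE 0.26, adjusted p = 3.99e-13 by edgeR). *Cxcl15* fell by 4.64 on the log2 scale (SE 0.19, adjusted p = 3.79e-13) and *Cxcl5* by 3.28 (SE 0.37, adjusted p = 3.29e-07). *Ccl20* was also called lower and had 3 reads over the 3 EpCAM-negative libraries, so that no fold is given. *Csf2*, *Il34*, *Ccl25*, *Cx3cl1* and *Il7* fell by 0.79 to 1.94 on the log2 scale. *Csf2* and *Il34* fell against the mean of the gates only, and lay above CD24hi cells. Their means were 0.282 and 3.76 RPKM in EpCAM-negative cells and 0.146 and 2.56 RPKM in CD24hi cells. *Cxcl16*, the membrane-bound ligand of CXCR6, was at 21.8, 18.5 and 19.1 RPKM and overlapped with the epithelial gates (log2 fold change 0.00, SE 0.14, adjusted p = 1.00 by edgeR).

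**Figure D3:**
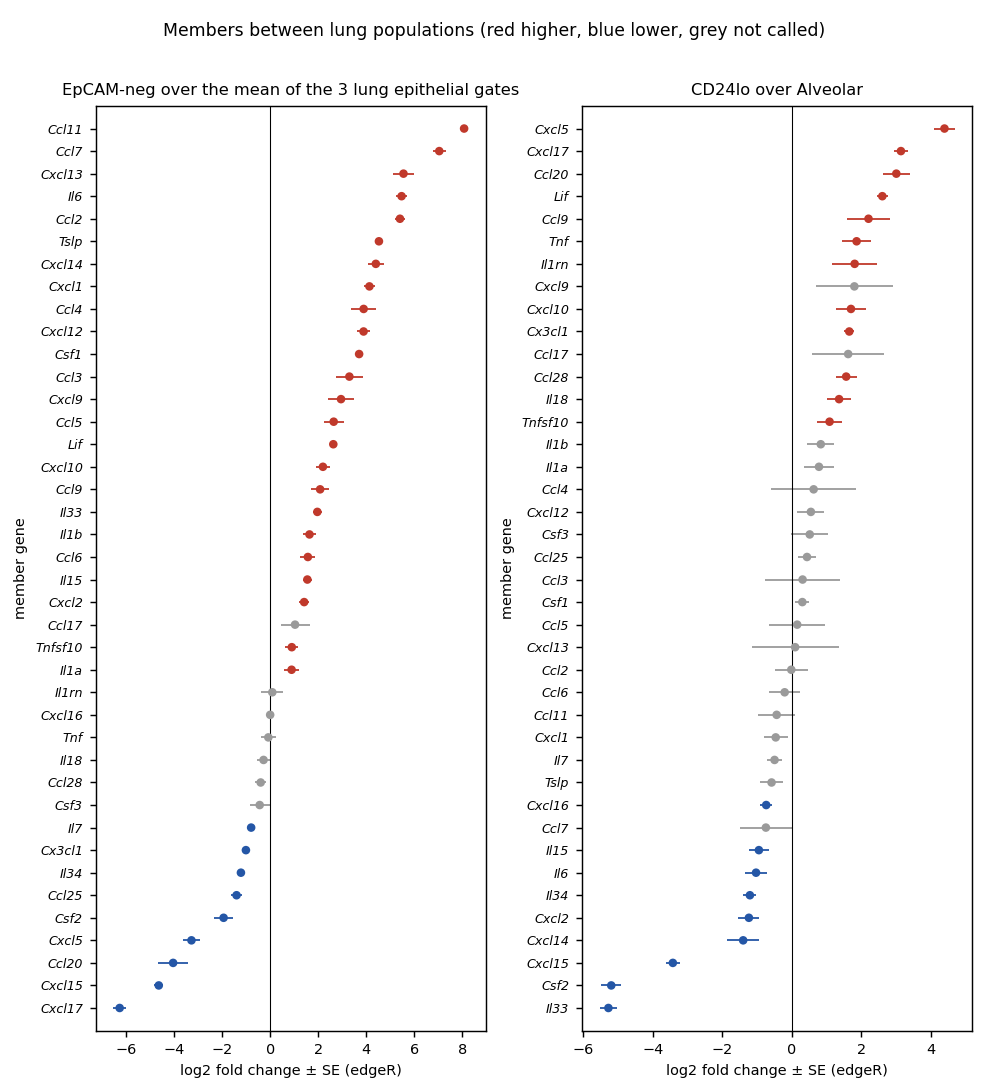
Log2 fold changes with SE (edgeR) of the 40 members for EpCAM-neg over the mean of the lung epithelial gates (left) and CD24lo over Alveolar (right). Red points passed as higher and blue as lower at an adjusted p-value under 0.05, and grey did not pass. Ccl11 lies at 8.07 on the left, and Il33 at -5.27 on the right.

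A group of leukocyte chemokines varied between the 3 EpCAM-negative libraries. *Ccl3* (MIP-1α) was at 10.1, 14.3 and 0.771 RPKM, *Ccl4* (MIP-1β) at 7.66, 15.5 and 1.15, *Ccl5* (RANTES) at 11.3, 17.5 and 3.44 and *Ccl9* at 2.27, 3.87 and 0.582 RPKM. The library of mouse 6 was lowest for all 4 genes, and also for *Ccl6* (9.62, 20.1 and 6.84 RPKM) and *Il1b* (16.5, 23.8 and 9.003 RPKM). The 8 leukocyte markers summed to 75.8, 115 and 37.8 RPKM in the same libraries and thus had the same order, while *Il6* was at 92.6% to 106% and *Ccl11* at 91.7% to 104% of their group means. Within the epithelial gates the leukocyte list summed to 23.7 to 39.4 RPKM. All 6 genes passed as higher in EpCAM-negative cells, by 1.57 to 3.89 on the log2 scale, but their libraries overlapped with the epithelial gates for all but *Ccl4*. The part of leukocytes in these values was not tested. *Tnfsf10* (log2 fold change 0.90, adjusted p = 0.00679 by edgeR) lost its call without EpCAM-negative replicate 1 (0.66, adjusted p = 0.0780). *Il1a* (0.89, adjusted p = 0.0184) lost it without EpCAM-negative replicate 1 or 2 (0.78 and 0.83, adjusted p = 0.0830 and 0.0655).

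**Figure D4:**
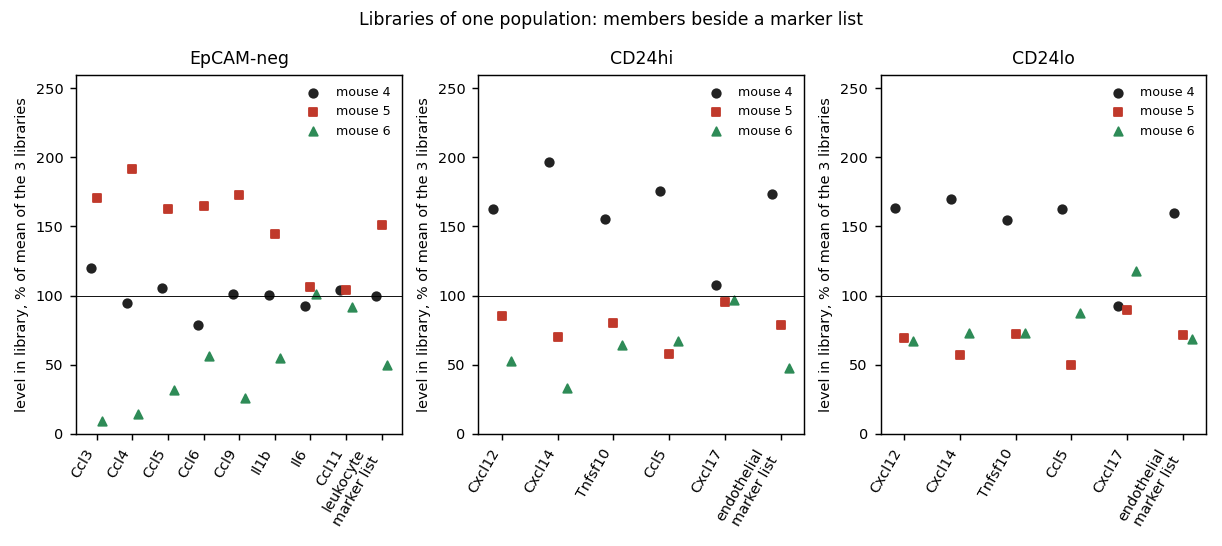
Level of selected members and of a summed marker list in each library, as a percent of the mean of the 3 libraries of that population (circles, mouse 4; squares, mouse 5; triangles, mouse 6). In EpCAM-neg, the library of mouse 6 is at 9.20% for Ccl3 and 49.6% for the leukocyte list. In CD24hi and CD24lo, the libraries of mouse 4 are highest for Cxcl12, Cxcl14, Tnfsf10, Ccl5 and the endothelial list. Some marker lists that are not drawn were also highest in mouse 4 in both gates.

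BSCs were then compared with non-basal cells of the same tracheas. Of the 40 members, 9 were higher and 14 lower in BSCs, where 21.9% of all genes tested were higher and 26.2% lower. The median log2 fold change was -0.05 for the members and -0.02 for all genes. Scaled without TMM, by library size alone, the median of all genes was 0.31, 7780 genes were higher and 2989 lower instead of 3948 and 4720, and 17 members were higher and 13 lower. In the fit with the mouse as a block, 13 members were higher and 14 lower, and *Ccl7*, *Csf2* and *Tslp* were too low to be tested in that fit. Without non-basal replicate 2, only 5 members were higher. Calls over all genes were not counted in the block fit or without this replicate. These member counts therefore have no share of all genes beside them.

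Several chemokines were lower in BSCs than in non-basal cells, and *Cx3cl1* was higher. *Cxcl17* was at 80.2, 63.9 and 55.0 RPKM in BSCs and 601, 430 and 404 in non-basal libraries (log2 fold change -2.85, SE 0.20, adjusted p = 3.79e-09 by edgeR). The neutrophil chemokine *Cxcl5* was at 3.39, 2.67 and 1.89 RPKM in BSCs and 72.6, 88.5 and 89.4 in non-basal libraries, a change of -4.98 (SE 0.23, adjusted p = 2.94e-11). *Ccl28*, the mucosal chemokine for IgA plasma cells, was at 1.32, 0.975 and 1.23 RPKM against 12.9, 13.7 and 13.3, a change of -3.50 (SE 0.17, adjusted p = 4.45e-11). None of these 3 genes overlapped between the gates, although non-basal libraries also held basal marker transcripts. *Ccl5* was at 0.160, 0.0519 and 0.212 RPKM in BSCs and 8.33, 4.62 and 4.22 in non-basal libraries (-5.22, SE 0.70, adjusted p = 7.87e-06), where the T, B and NK cell markers summed to 2.60 to 5.01 CPM against 0.113 to 0.166 CPM in BSCs. The 8 leukocyte markers overlapped between the gates, at 34.6 to 42.2 CPM in BSCs and 33.3 to 63.2 CPM in non-basal cells. The part of lymphocytes in the *Ccl5* difference was not tested. *Cxcl13* (-5.15), *Il33* (-4.31), *Cxcl15* (-3.94), *Il34* (-3.48), *Ccl9* (-2.30), *Il18* (-1.68) and *Lif* (-0.77) were also lower in BSCs without overlap.

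Of the 5 IL-1 family genes, 3 were higher in BSCs and 2 lower, beside 21.9% and 26.2% of all genes. *Il1rn*, which encodes the IL-1 receptor antagonist, was at 5.23, 5.07 and 6.30 RPKM in BSCs and 0.747, 0.587 and 1.05 in non-basal libraries (log2 fold change 2.79, SE 0.37, adjusted p = 6.62e-06 by edgeR). *Il1b* was at 10.9, 15.8 and 17.5 against 4.95, 2.83 and 5.79 RPKM (1.70, SE 0.32, adjusted p = 0.000306), and *Il1a* at 2.46, 3.98 and 4.35 against 1.73, 1.12 and 1.55 RPKM (1.29, SE 0.26, adjusted p = 0.000571). The 3 BSC libraries lay above all 3 non-basal libraries for each of them. In the GENCODE annotation, opposite-strand exons cover 11.2% of the exonic bases of *Il1a*, 12.0% of *Csf2* and 18.3% of *Cxcl16*, and strand was not stated for the counting, so that their levels are less certain. Immediate early and dissociation genes also differed between the gates, with 14 of 18 higher in BSCs and 0 lower, beside the same shares of all genes. The part of immediate early and dissociation genes in these values was not tested.

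The membrane chemokine *Cx3cl1* (fractalkine) was at 62.6, 61.5 and 60.6 RPKM in BSCs and 48.4, 44.5 and 46.5 in non-basal libraries, without overlap. Its change of 0.41 (SE 0.14, adjusted p = 0.0202 by edgeR) was not called without BSC replicate 1 or non-basal replicate 2 or 3 (0.38 to 0.41, adjusted p = 0.05002 to 0.0688). *Ccl3* and *Ccl4* were higher in BSCs at 4.72, 7.45 and 8.51 against 2.54, 1.11 and 2.76 RPKM and at 6.64, 10.7 and 11.8 against 4.34, 2.93 and 3.50 RPKM (1.68 and 1.43, adjusted p = 0.0272 and 0.0192). *Ccl3* was not called without BSC replicate 2 or 3 or non-basal replicate 1 or 2 (1.37 to 1.82, adjusted p = 0.0517 to 0.110), nor *Ccl4* without BSC replicate 2 or 3 or non-basal replicate 2 or 3 (1.27 to 1.41, adjusted p = 0.0546 to 0.0702). *Cxcl2* (0.84, adjusted p = 0.0157) was not called without BSC replicate 3 or non-basal replicate 1 or 2 (0.72 to 0.79, adjusted p = 0.0545 to 0.0669). *Tnfsf10* (-0.98, adjusted p = 0.0374) was not called without BSC replicate 2 or 3 or non-basal replicate 1 or 3 (-1.04 to -0.80, adjusted p = 0.0525 to 0.133). *Csf2* and *Tslp* were at most 0.132 RPKM in any tracheal library, with 1 and 2 reads over the BSC libraries, and their calls were lost without BSC replicate 1 or 2 for *Csf2* (adjusted p = 0.0604 to 0.0666) and without BSC replicate 3 or non-basal replicate 2 for *Tslp* (adjusted p = 0.0855 to 0.112). *Il7* was at 3.02, 2.82 and 2.70 RPKM in BSCs and 1.97, 1.60 and 1.4999 in non-basal libraries (0.75, SE 0.19, adjusted p = 0.00266). *Ccl7* had 13 reads in BSCs and 0 in non-basal cells, at least 3.59-fold higher against a floor of 3 reads over the group.

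Several members at appreciable levels did not pass the test between the tracheal gates. *Cxcl16* was at 32.4, 48.8 and 43.9 RPKM in BSCs and 30.6, 46.0 and 37.4 in non-basal libraries (0.13, SE 0.17, adjusted p = 0.539 by edgeR). In each mouse the BSC value was the higher, and with the mouse as a block the change was 0.12 (adjusted p = 0.0239). *Cxcl1* was at 2.89, 8.80 and 7.63 against 5.32, 14.8 and 11.9 RPKM (-0.72, SE 0.35, adjusted p = 0.0993), and with the block -0.75 (adjusted p = 4.50e-05). It was also called without BSC replicate 2 or non-basal replicate 1 (-1.05 to -1.02, adjusted p = 0.0155 to 0.0482). *Csf1* was at 5.05, 5.35 and 6.08 against 3.66, 4.03 and 4.47 RPKM (0.44, adjusted p = 0.0624), and with the block 0.43 (adjusted p = 8.99e-05). The block also gave calls for *Il6* (0.78, adjusted p = 0.0818 without it and 0.74, adjusted p = 0.00724 with it), *Cxcl10* (0.62, adjusted p = 0.204 and 0.59, adjusted p = 0.00474), *Ccl6* (0.72, adjusted p = 0.314 and 0.74, adjusted p = 0.0387) and *Cxcl12* (-1.37, adjusted p = 0.194 and -1.42, adjusted p = 0.00695). *Cxcl12* was at most 0.15 RPKM in any tracheal library. Mouse 1 was lowest in both gates for *Cxcl16*, *Cxcl1* and *Csf1*. *Ccl20*, the CCR6 ligand of mucosal epithelium, was at 8.01, 10.9 and 11.1 against 8.24, 7.27 and 11.7 RPKM (0.14, SE 0.25, adjusted p = 0.676).

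**Figure D5:**
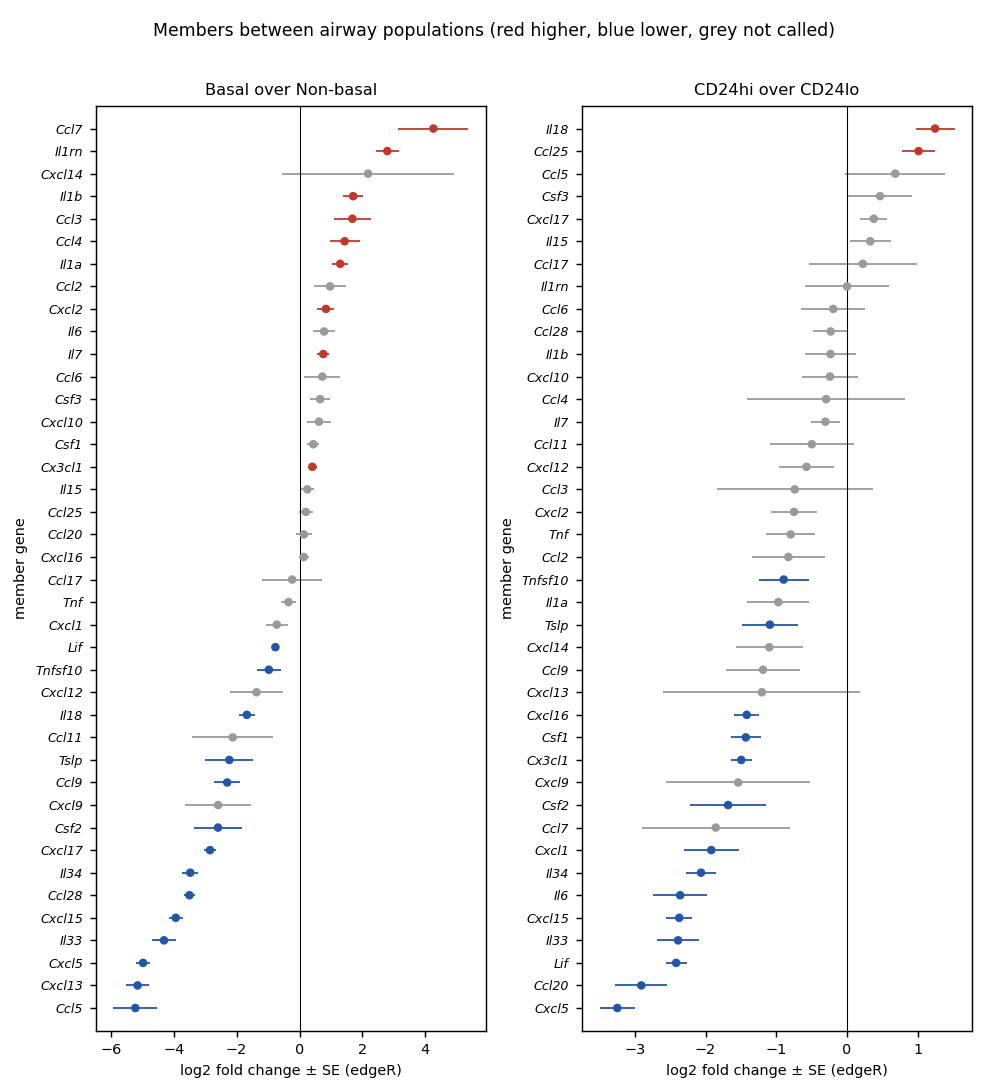
Log2 fold changes with SE (edgeR) of the 40 members for Basal over Non-basal (left) and CD24hi over CD24lo (right). Red points passed as higher and blue as lower at an adjusted p-value under 0.05, and grey did not pass. On the right 2 members are red and 14 blue.

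In the lung airway, most members that differed were lower in the ciliated-enriched CD24hi cells than in the club-enriched CD24lo cells of the same mice. Only *Il18* and *Ccl25* were higher and 14 members were lower, where 27.8% of all genes were higher and 27.2% lower. The median log2 fold change of the members was -0.86, against -0.06 for all genes. With library size alone the median of all genes was 0.21, 7002 genes were higher and 3233 lower instead of 4998 and 4901, and 3 members were higher and 11 lower.

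*Il18*, an IL-1 family cytokine that induces interferon gamma, was at 6.71, 9.41 and 8.99 RPKM in CD24hi and 4.78, 3.29 and 2.39 in CD24lo libraries (log2 fold change 1.24, SE 0.28, adjusted p = 0.000948 by edgeR). *Ccl25*, the CCR9 ligand, was at 3.61, 2.85 and 2.35 against 1.23, 1.62 and 1.54 RPKM (1.01, SE 0.23, adjusted p = 0.00121). Among the members that were lower in CD24hi cells, *Cxcl5* was at 1.78, 1.57 and 2.19 against 14.1, 15.2 and 23.4 RPKM (-3.25, SE 0.25, adjusted p = 8.31e-09), and *Ccl20* at 0.847, 0.647 and 1.27 against 5.28, 10.2 and 5.31 RPKM (-2.91, SE 0.37, adjusted p = 2.82e-06). *Lif* was at 1.44, 1.21 and 1.30 against 5.95, 7.05 and 8.15 RPKM (-2.41, SE 0.15, adjusted p = 8.86e-10), and *Cx3cl1* at 13.4, 8.93 and 8.73 against 27.8, 31.1 and 28.6 RPKM (-1.49, SE 0.15, adjusted p = 1.13e-07). All 4 were without overlap. The alveolar-high members *Il33* (-2.39), *Cxcl15* (-2.37) and *Il34* (-2.06) and the stromal-high members *Il6* (-2.36), *Cxcl1* (-1.92) and *Csf1* (-1.43) were also lower in CD24hi cells, in which the alveolar type 2 and the fibroblast lists were lower too (2256 to 3618 against 10232 to 11871 CPM, and 146 to 324 against 638 to 892 CPM). The part of these lists' cells in the differences was not tested. *Cxcl16* was lower by 1.42 (adjusted p = 2.93e-06).

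*Cxcl17* was at 386, 342 and 345 against 255, 247 and 324 RPKM, with CD24hi libraries above all CD24lo libraries but a change of 0.38 that did not pass (SE 0.19, adjusted p = 0.102 by edgeR). It passed with limma voom (0.39, adjusted p = 0.0425) and with library size alone (0.67, adjusted p = 0.00601). The libraries of mouse 4 were the highest of their gate for *Cxcl12*, *Cxcl14*, *Tnfsf10* and *Ccl5*. *Cxcl14* was at 13.8, 4.87 and 2.32 in CD24hi and 25.3, 8.49 and 10.9 RPKM in CD24lo libraries, and *Cxcl12* at 5.67, 2.96 and 1.82 and at 8.43, 3.58 and 3.47 RPKM. The 5 endothelial markers summed to 212, 96.2 and 58.0 RPKM in CD24hi and 281, 126 and 121 RPKM in CD24lo libraries. This order was not particular to the endothelial list. Fibroblast and smooth muscle markers summed to 81.1, 64.3 and 43.1 RPKM in CD24hi and 273, 214 and 240 RPKM in CD24lo libraries. Mouse 4 was also highest in both gates for the T, B and NK cell, alveolar type 2 and ciliated markers, but for no other marker list. The part of any of these cells was not tested. *Cxcl14* was not called (-1.10, SE 0.48, adjusted p = 0.0600) but was lower in CD24hi cells with the mouse as a block (-1.16, adjusted p = 0.0154), without CD24hi replicate 1 or CD24lo replicate 2 (-2.05 and -1.38, adjusted p = 0.00101 and 0.0279) and without both libraries of mouse 4 (-1.41, adjusted p = 0.00418). *Cxcl12* (-0.57, adjusted p = 0.221) was called without CD24hi replicate 1 (-1.11, adjusted p = 0.0159). *Cxcl2* (-0.75, adjusted p = 0.0650) was called without CD24hi replicate 2 or CD24lo replicate 1 or 3 (-1.05 to -0.90, adjusted p = 0.00916 to 0.0475) and without both libraries of mouse 4 (-0.85, adjusted p = 0.0344). The call of *Tnfsf10* (-0.90, adjusted p = 0.0391) was lost without CD24hi replicate 2 or 3 or CD24lo replicate 1 (-0.76 to -0.43, adjusted p = 0.130 to 0.316), and that of *Csf2* (-1.68, adjusted p = 0.0175) without CD24hi replicate 3 or CD24lo replicate 1 (-1.39 and -1.03, adjusted p = 0.0728 and 0.291). *Tslp* (-1.09, adjusted p = 0.0286) was not called without replicate 1 or 3 of either gate (-1.08 to -0.58, adjusted p = 0.0535 to 0.333). Without both libraries of mouse 4, *Csf2* (-1.03, adjusted p = 0.332) and *Tslp* (-0.57, adjusted p = 0.374) did not pass either.

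Against alveolar cells of the same lungs, CD24lo cells had 12 members higher and 9 lower, where 24.2% of all genes were higher and 24.2% lower. The median log2 fold change of the members was 0.37, against 0.03 for all genes. *Cxcl5* led the rises, at 14.1, 15.2 and 23.4 RPKM in CD24lo and 0.745, 0.667 and 1.10 in alveolar libraries (4.39, SE 0.29, adjusted p = 1.02e-09 by edgeR). *Cxcl17* was at 255, 247 and 324 against 35.1, 28.9 and 29.6 RPKM (3.14, SE 0.21, adjusted p = 1.08e-09), *Ccl20* rose by 3.01 (SE 0.39, adjusted p = 4.41e-06) and *Lif* by 2.60 (SE 0.15, adjusted p = 2.06e-10). *Cx3cl1* at 27.8, 31.1 and 28.6 against 9.05, 9.69 and 9.05 RPKM rose by 1.65 (SE 0.15, adjusted p = 4.41e-08). *Cxcl10*, at 7.61, 15.6 and 6.69 against 2.00, 3.51 and 3.76 RPKM, rose by 1.70 (SE 0.44, adjusted p = 0.00411). None of these 6 members overlapped between the gates.

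Among the falls were members already described as highest in alveolar cells, with *Il33* at -5.27 (SE 0.26, adjusted p = 1.61e-11 by edgeR), *Csf2* at -5.19 (SE 0.28, adjusted p = 7.26e-11), *Cxcl15* at -3.42 and *Il34* at -1.20. *Il6* (-1.03, adjusted p = 0.00956), *Cxcl2* (-1.23, adjusted p = 0.00244) and *Cxcl16* (-0.74, adjusted p = 0.00181) were lower as well. *Cxcl1* was at 19.9, 33.3 and 24.0 in CD24lo against 31.5, 36.8 and 38.1 RPKM in alveolar libraries (-0.46, SE 0.35, adjusted p = 0.292), and with the mouse as a block -0.49 (adjusted p = 0.0245). The alveolar value was the higher in each mouse. The call of *Cxcl14* (-1.40, adjusted p = 0.0166) was lost without alveolar replicate 1 or CD24lo replicate 2 or 3 (-1.21 to -0.96, adjusted p = 0.0701 to 0.116), that of *Tnfsf10* (1.09, adjusted p = 0.0184) without alveolar replicate 1 or 3 or CD24lo replicate 1 (0.62 to 0.98, adjusted p = 0.0703 to 0.162) and that of *Il15* (-0.95, adjusted p = 0.0101) without CD24lo replicate 2 (-0.73, adjusted p = 0.0623). *Il1rn* (1.81, adjusted p = 0.0298) was not called without alveolar replicate 1 or 3 or CD24lo replicate 2 or 3 (1.48 to 1.79, adjusted p = 0.0620 to 0.115).

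CD24hi cells had 8 members higher and 13 lower than alveolar cells, where 30.5% of all genes were higher and 31.4% lower. The median log2 fold change was -0.11 for the members and -0.01 for all genes. With library size alone the median of all genes was 0.29, 7285 genes were higher and 3858 lower instead of 5479 and 5652, and 12 members were higher and 13 lower. *Cxcl17* rose by 3.52 (SE 0.21, adjusted p = 1.07e-10 by edgeR), *Il18* by 2.60 (SE 0.31, adjusted p = 1.03e-06), *Cxcl10* by 1.46 and *Ccl25* by 1.45. *Il33* fell by 7.66 (SE 0.30, adjusted p = 6.27e-13), *Csf2* by 6.87 (SE 0.32, adjusted p = 5.32e-12), *Cxcl15* by 5.79 (SE 0.21, adjusted p = 3.74e-13), *Il6* by 3.39 and *Cxcl16* by 2.15. The change of *Cx3cl1* did not pass (0.16, SE 0.15, adjusted p = 0.367), but did with library size alone (0.47, adjusted p = 0.00956). *Il15* (-0.62, adjusted p = 0.0504) passed with the block (-0.62, adjusted p = 0.0233). *Tnf* (1.07, adjusted p = 0.0387) did not pass with the mouse as a block (1.06, adjusted p = 0.0514), nor without any 1 of the alveolar replicates or CD24hi replicate 1 or 2 (0.84 to 1.14, adjusted p = 0.0621 to 0.147). *Il1rn* (1.81, adjusted p = 0.0188) was not called without alveolar replicate 1 or CD24hi replicate 2 (1.57 and 1.17, adjusted p = 0.0737 and 0.143), and *Ccl7*, with 2 reads in CD24hi cells, not without alveolar replicate 1 or 2 or CD24hi replicate 1 (adjusted p = 0.0701 to 0.0771). These comparisons share the alveolar libraries.

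Between organs, BSCs had 13 members higher and 14 lower than alveolar cells, where 30.5% of all genes were higher and 35.6% lower. The members' median log2 fold change was 0.02, against -0.09 for all genes. With library size alone the median of all genes was 0.29, 7924 genes were higher and 4363 lower instead of 5485 and 6410, and 17 members were higher and 14 lower. Cell type, organ, mouse and dissociation cannot be told apart here. The IL-1 family genes *Il1rn* (4.80), *Il1a* (3.12) and *Il1b* (1.96) were higher in BSCs without overlap, with adjusted p-values of 2.09e-07, 4.48e-07 and 0.000114 by edgeR. *Ccl20* was at 8.01, 10.9 and 11.1 against 0.879, 0.574 and 1.13 RPKM (3.54, SE 0.36, adjusted p = 1.34e-07) and *Cx3cl1* at 62.6, 61.5 and 60.6 against 9.05, 9.69 and 9.05 RPKM (2.73, SE 0.15, adjusted p = 2.77e-11). *Tnf* (3.01) and *Lif* (2.58) were higher too. *Il33* (-11.21), *Cxcl15* (-13.79) and *Il34* (-6.55) were lower in BSCs. *Csf2* had 1 read over the BSC libraries and *Ccl11* had 0, and *Ccl11* was at least 24.4-fold higher in alveolar cells against a floor of 3 reads over the group. The alveolar libraries held only 22 reads of *Ccl11*, 0.494% of its EpCAM-negative level. Fibroblast and smooth muscle markers were at 0.684% to 8.54% of theirs in alveolar cells. The part of EpCAM-negative cells or their RNA in the alveolar *Ccl11* level was not tested. *Cxcl2* (-0.62, adjusted p = 0.0509) was called without BSC replicate 3 (-0.74, adjusted p = 0.0487), with the 1 CPM filter (adjusted p = 0.0424), with limma voom (0.0151) and in a fit of only the libraries compared (0.00406).

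The luminal airway cells of both organs were compared as non-basal tracheal against CD24lo cells, with the same limit on organ and dissociation. Here 13 members were higher and 18 lower in non-basal cells, where 25.3% of all genes were higher and 27.8% lower. The median was -0.48 for the members and -0.04 for all genes. *Ccl28* was at 12.9, 13.7 and 13.3 against 0.591, 0.630 and 0.800 RPKM (log2 fold change 4.31, SE 0.20, adjusted p = 2.00e-11 by edgeR). *Cxcl5* rose by 2.25 (SE 0.20, adjusted p = 7.55e-08), *Tnf* by 1.5 (SE 0.27, adjusted p = 0.000204) and *Cxcl17* by 0.79 (SE 0.19, adjusted p = 0.00194), all without overlap. *Cxcl15* (-6.43), *Cxcl12* (-5.79), *Il6* (-2.85), *Il34* (-1.87), *Cxcl10* (-1.73) and *Cxcl1* (-1.27) were lower in the tracheal cells without overlap, and all 6 had their highest mean in the alveolar or EpCAM-negative gate of the lung. *Ccl20* at 8.24, 7.27 and 11.7 against 5.28, 10.2 and 5.31 RPKM did not pass (0.39, SE 0.27, adjusted p = 0.239) but did without CD24lo replicate 2 (0.77, adjusted p = 0.0299). *Il18* (0.66, adjusted p = 0.0509) passed without CD24lo replicate 1 (0.96, adjusted p = 0.0153), with DESeq2 (0.0419), with limma voom (0.0404) and with no filter (0.0487), and *Csf1* (-0.38, adjusted p = 0.114) without CD24lo replicate 3 (-0.53, adjusted p = 0.0437). Calls that were lost without a single library were those of *Ccl4* (CD24lo replicate 2, 2.19, adjusted p = 0.0575), *Csf2* (CD24lo replicate 1, -1.74, adjusted p = 0.0581), *Ccl5* (CD24lo replicate 2 or non-basal replicate 1, 1.57 and 1.54, adjusted p = 0.0690 and 0.0584), *Ccl9* (CD24lo replicate 1 or 2 or non-basal replicate 1, 0.90 to 1.11, adjusted p = 0.0870 to 0.137), *Il15* (0.50 to 0.72, adjusted p = 0.0639 to 0.109) and *Il1a* (0.75 to 0.92, adjusted p = 0.0518 to 0.0962), both without CD24lo replicate 2 or 3 or non-basal replicate 1, and *Ccl25* (CD24lo or non-basal replicate 2 or 3, -0.67 to -0.62, adjusted p = 0.0560 to 0.0793).

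A few members stayed low everywhere. *Cxcl9*, which is induced by interferon gamma, was at most 0.341 RPKM in any library and was highest in EpCAM-negative cells without overlap. *Csf3* (G-CSF) was at most 0.601 RPKM, in a BSC library, and *Ccl17*, a ligand of CCR4, at most 1.32 RPKM, in a CD24hi library. Neighbouring populations overlapped for *Csf3* and *Ccl17* at each step of their order of means. In the main fit *Csf3* was still called higher in BSCs than in alveolar cells (log2 fold change 1.15, adjusted p = 0.0237 by edgeR). *Ccl17* was called lower in non-basal than in CD24lo cells (-2.29, adjusted p = 0.0410). Neither call was kept with the replicate block, in which *Ccl17* was not tested. Low counts limit what can be detected for such genes.

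The receptors of these ligands were followed as lists. Of 22 chemokine receptors, 19 passed the filter, and 14 were higher and 2 lower in EpCAM-negative cells than in the lung epithelial gates, beside 35.5% and 33.4% of all genes. *Ackr3*, a scavenging receptor for CXCL12, rose by 3.81 (SE 0.14, adjusted p = 4.34e-14 by edgeR), and *Cxcr4*, the signalling receptor for CXCL12, by 1.52. *Ackr3* was also higher in BSCs than in non-basal cells (1.93, SE 0.17, adjusted p = 5.71e-08), where 2 of 19 receptors were higher and 9 lower, beside 21.9% and 26.2% of all genes. The cytokine receptor list of 23 genes had 18 higher and 4 lower in EpCAM-negative cells, and 9 higher and 8 lower in BSCs against non-basal cells. The decoy receptor *Il1r2*, which binds IL-1 without signalling, was among the latter's rises (2.39, SE 0.24, adjusted p = 2.49e-07), alongside its ligands *Il1a* and *Il1b*.

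Genes that process or respond to these signals differed between gates as well. The caspases *Casp1* and *Casp4*, of which the first cleaves pro-IL-1β and pro-IL-18, were higher in CD24lo than in alveolar cells by 4.73 (SE 0.40, adjusted p = 2.26e-08 by edgeR) and 4.46 (SE 0.23, adjusted p = 4.22e-11), as were 3 of 7 genes of the processing list, with 2 lower, beside 24.2% of all genes each way. In CD24hi against CD24lo cells 6 of the 7 were lower and 0 higher, beside 27.2% and 27.8% of all genes. Of 11 NF-kappaB targets and feedback genes, 8 were higher and 1 lower in EpCAM-negative cells, led by *Tnfaip2* at 3.45, and 0 were higher and 6 lower in CD24hi against CD24lo cells. Of 13 interferon-stimulated genes, 11 were higher and 1 lower in EpCAM-negative cells, and 1 was higher and 10 lower in BSCs against non-basal cells, among them *Irf7* at -1.76. Of all genes, 35.5% were higher and 33.4% lower in EpCAM-negative cells, and 21.9% were higher and 26.2% lower in BSCs. Immediate early and dissociation genes, which tissue digestion can induce, were higher for 12 of 18 and lower for 1 in EpCAM-negative cells. In CD24lo against alveolar cells 12 of the 18 were higher and 3 lower, beside 24.2% of all genes each way. The part of immediate early and dissociation genes in the levels of *Il6*, *Cxcl1* and the other inducible members was not tested.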

How the data were processed

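The authors sequenced 18 libraries of sorted cells as single-end reads on a HiSeq instrument, aligned the reads to mm10 with Rsubread, and deposited 1 table per library of raw read counts per Entrez gene from featureCounts, with gene lengths. The submitters' processing notes name bcl2fastq 1.8.4. Versions of the other tools and strandedness are not given in the sources used here. Each table held 27179 genes, of which 25275 matched a symbol. Counts were analysed with edgeR 4.0.16 in R 4.3.3. Genes above 0.2 CPM in at least 3 libraries were kept (17989), TMM factors were applied, and 1 quasi-likelihood fit of all 6 groups gave 7 contrasts with Benjamini-Hochberg adjustment over all genes tested (threshold 0.05). RPKM values were computed from the counts, the deposited lengths and the TMM-scaled library sizes. The scripts were tested on simulated data.

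The members, marker lists and pathway lists were chosen with earlier results of these data known. Members with a highest mean of at least 5 RPKM, or called with a log2 fold change of at least 1 in size and at 1 RPKM or more in a population, were named with values. For pathway lists, at most 3 called genes were named per comparison, by the size of the log2 fold change among those averaging 5 CPM or more over all libraries. The labels give the same mice for the libraries of 1 organ. The main fit had no mouse term, so its tests within an organ ignore this pairing. The mouse entered only as a replicate block among the alternatives. The deviations of same-mouse libraries from their group means correlated at 0.0844 to 0.277 in trachea and -0.0536 to 0.242 in lung. Alternatives were RLE factors, library size alone, a filter of 1 CPM, no filter, limma voom (limma 3.58.1), DESeq2 1.42.0, fits of fewer libraries, a replicate block, leaving out each library, and, chosen after seeing the data, leaving out both CD24 libraries of mouse 4. Promoters are from RefSeq, and exon overlaps from GENCODE.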

Additional observations from a re-analysis of the deposited data

How the results depend on the processing

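With the mouse number as a replicate block, 13 members were higher and 14 lower in BSCs against non-basal cells, and 24 were higher and 9 lower in EpCAM-negative cells. Between organs the block joins different mice that share only a number, and there 15 members were higher and 16 lower for BSCs against alveolar cells. Between organs the calls of *Csf3*, *Ccl25*, *Il7*, *Ccl17* and *Ccl7* were lost and those of *Ccl9*, *Csf1*, *Cxcl10*, *Cxcl2*, *Il7* and *Il18* gained in 1 comparison each, where *Il7* lost 1 call and gained another. Within organs the block changed the calls given in the report, and *Ccl7*, *Csf2* and *Tslp* were not tested between BSCs and non-basal cells, because the filter was applied to fewer libraries. It changed no other call of a member. The number of members higher in BSCs than in non-basal cells was 9, and 17 with library size alone, and 5 to 10 when 1 library was left out, the lowest without non-basal replicate 2. The number higher in CD24hi than in alveolar cells was 8, and 5 with limma voom. The cause of these shifts was not tested. Calls over all genes were counted only in the main fit and with library size alone. The other member counts therefore cannot be set beside all genes. Without both CD24 libraries of mouse 4, 2 members were higher and 15 lower in CD24hi against CD24lo cells.

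Of 3328 alternative values of 206 results, 3161 kept their direction and side of the threshold or, for counts, stayed within 1.5 times. A further 3 were counts that moved by more than that. Alternatives in which a member was not tested were left out of these values. Calls were lost in 98 values and gained in 46, and 20 changed sign, all of them values that were not called. *Cxcl16* in EpCAM-negative cells had 9 of these, at 0.046 with RLE factors and with DESeq2, 0.068 with library size alone, 0.0047 with the 1 CPM filter, 0.0040 with limma voom and 0.017 without both CD24 libraries of mouse 4, and it ran from -0.072 to 0.051 when 1 library was left out. The same range was -0.00083 to 0.29 for *Cxcl16* between BSCs and non-basal cells, and -0.021 to 0.26 between BSCs and alveolar cells. In CD24hi against CD24lo cells, *Cxcl10* was at 0.059 and *Il1b* at 0.063 with library size alone, with ranges of -0.45 to 0.23 and -0.43 to 0.11 when 1 library was left out. *Cxcl12* in CD24lo against alveolar cells ranged from -0.0061 to 0.81 and was at -0.0072 without both CD24 libraries of mouse 4. *Cx3cl1* in CD24hi against alveolar cells ranged from -0.066 to 0.27 and was at -0.065 without those 2 libraries. *Cxcl2* in non-basal against CD24lo cells ranged from -0.53 to 0.37. The cause was not tested. With RPKM from library size alone, 38 of 40 members had their highest mean in the same population, and *Il1b* and *Il7* were then highest in BSCs. The lower depth of the lung libraries limits members at a few reads.

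Other calls not given in the report also changed. Between BSCs and non-basal cells, *Csf1* passed with RLE factors, library size alone, limma voom, DESeq2 and a fit of only those libraries, *Cxcl16* passed and *Tnfsf10* did not with library size alone. With limma voom, *Il1a* in EpCAM-negative cells, *Cxcl5*, *Il1rn* and *Tnf* in CD24hi against alveolar cells, *Il1rn* in CD24lo against alveolar cells and *Tslp* in CD24hi against CD24lo cells did not pass. With library size alone and in fits of fewer libraries, *Csf2*, *Tnfsf10* and *Tslp* in CD24hi against CD24lo cells did not pass.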
